A study of Mus musculus with 8 samples.

Results

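The 33 genes described here encode the enzymes of cholesterol synthesis, the sensors and transcription factors that control them, the proteins that load and carry cholesterol out of the cell, and the enzymes that make and modify fatty acids. They were taken from a list of gene symbols, matched by symbol in the authors' deposited comparison and joined by Ensembl identifier to the count tables. All 33 were found among 39179 identifiers, and all 33 passed the filter on low counts and were tested. They comprised 18 sterol synthesis genes, 5 regulators, 4 lipid export genes and 6 fatty acid genes.

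RNA was sequenced from astrocytes of the mouse spinal cord, sorted by flow cytometry for an Aldh1l1-GFP reporter at postnatal days 12 to 14. Aldh1l1 encodes a folate enzyme of astrocytes, and its regulatory elements drive the reporter. The control group held 4 libraries (S1, S2, S6 and S7) from animals without Cre, given as wild-type with the reporter. The conditional knockout group (cKO) held 4 libraries (S3, S4, S5 and S8) in which Aldh1l1-cre deletes both floxed copies of Kir4.1, so the deletion reaches whichever cells use the Aldh1l1 promoter. Values per library are listed in these orders. Kir4.1, encoded by Kcnj10, is the potassium channel through which astrocytes take up extracellular potassium. Every library carried the reporter and came from a mixed Swiss-Webster strain. The libraries are described as biological replicates, and the labels do not give the sex of the animals, the number of animals per library or whether controls carried floxed alleles.

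The brain and spinal cord make their own cholesterol, because lipoproteins of the blood do not cross the blood-brain barrier. Astrocytes supply neurons with cholesterol on particles that carry apolipoprotein E, and oligodendrocytes make large amounts of it for myelin. When sterols in the endoplasmic reticulum run low, the escort protein Scap carries the membrane-bound factors SREBP-1 and SREBP-2 (Srebf1 and Srebf2) to the Golgi for cleavage, and their released fragments switch on the synthesis genes. When sterols are plentiful, Insig1 and Insig2 hold Scap back.

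SREBP factors act on short promoter elements together with the CCAAT-binding factor NF-Y. Promoters from the RefSeq table on GRCm38.p6 were therefore searched over the 250 bases before each start, on both strands. Of the members, 26 had an entry, with 36 starts in all; Sqle, Fdft1, Fdps, Scd1, Scd2, Clu and Abcg1 are named only. The box CCAAT, read as ATTGG on the other strand, stood before 14 of 18 starts of sterol synthesis members (77.8%), against 33.8% of 32851 promoters of the same length. It stood before 5 of 10 starts of regulators, 2 of 4 of fatty acid members and 0 of 4 of the lipid export members Apoe and Abca1. The GC box GGGCGG, to which Sp1 binds, stood before 23 of 36 member starts against 32.7% of promoters, and the E-box CACGTG before 7 of 36 against 6.02%. The sterol regulatory element in the form TCACNCCAC was found before 1 member, Hmgcs1, and before 1.05% of all promoters. The 4 windows printed here are those of Hmgcs1, an early step that holds this element, and of Hsd17b7, Tm7sf2 and Srebf2, the members with an entry whose RNA was higher in cKO at an unadjusted p under 0.05. Capitals mark each match to CCAAT or TCACNCCAC on either strand, and each sequence reads 5′ to 3′ on the strand of its gene. They lie at chr13:119690101-119690350 (plus strand), chr1:169969206-169969455 (minus), chr19:6067851-6068100 (minus) and chr15:82147019-82147268 (plus). Gene starts differ in GENCODE M21. There the start of Tm7sf2 (6068373) puts its window inside the gene, and those of Hsd17b7 (169969241) and Srebf2 (82147181) fall within their windows.
Hmgcs1: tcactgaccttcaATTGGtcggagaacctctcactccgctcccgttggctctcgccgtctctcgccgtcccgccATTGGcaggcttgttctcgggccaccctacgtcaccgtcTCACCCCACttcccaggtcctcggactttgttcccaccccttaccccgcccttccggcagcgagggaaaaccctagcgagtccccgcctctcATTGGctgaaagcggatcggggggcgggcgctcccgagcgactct
Hsd17b7: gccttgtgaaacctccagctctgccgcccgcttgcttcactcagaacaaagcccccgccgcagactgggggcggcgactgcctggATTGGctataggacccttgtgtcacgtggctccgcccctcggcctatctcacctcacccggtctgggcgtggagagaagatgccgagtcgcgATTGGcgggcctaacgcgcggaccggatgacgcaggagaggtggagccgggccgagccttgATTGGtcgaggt
Tm7sf2: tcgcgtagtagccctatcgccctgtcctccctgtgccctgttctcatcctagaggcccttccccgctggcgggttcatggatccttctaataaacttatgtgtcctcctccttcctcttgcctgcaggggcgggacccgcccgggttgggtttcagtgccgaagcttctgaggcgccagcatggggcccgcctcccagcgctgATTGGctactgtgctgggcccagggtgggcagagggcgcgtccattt
Srebf2: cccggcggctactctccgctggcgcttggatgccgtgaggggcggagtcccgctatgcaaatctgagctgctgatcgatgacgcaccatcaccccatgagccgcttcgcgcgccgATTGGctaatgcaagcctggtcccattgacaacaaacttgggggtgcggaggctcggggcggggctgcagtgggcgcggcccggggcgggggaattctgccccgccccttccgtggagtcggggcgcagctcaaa

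The sterol element of Hmgcs1 began 137 bases before the start (position −137), between CCAAT boxes. Hsd17b7 held 3 CCAAT boxes, and Tm7sf2 and Srebf2 held 1 each. A match describes these letters and does not show that a factor binds there.

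Gene reads numbered 13892736 to 25065686 per library, and 17312 to 20470 genes had at least 1 count. The lowest count of any member in any library was 66. The targeted gene Kcnj10 averaged 1820 CPM ± 468 in controls against 34.0 CPM ± 4.64 in cKO (SD over 4 libraries each), so 1.87% of its RNA remained, and its log2 fold change was −5.74 (adjusted p 7.52e-08, edgeR quasi-likelihood test). CPM are counts scaled to library size after TMM normalization, and log2 fold changes are cKO over control throughout. Across 14757 genes tested by edgeR, 47 had an adjusted p under 0.05, which is 0.318% of them. The median log2 fold change of all genes tested was −0.017.

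Markers of the sorted cells and of other cells were read beside the members. The 10 astrocyte markers summed to 15077 to 22855 CPM in controls and 18186 to 22300 CPM in cKO, and all 10 had counts in every library. Of these, 6 of 10 had a higher mean in cKO. Aqp4 and Aldh1l1, the gene behind the sort and the Cre, rose by log2 fold changes of 1.09 and 1.01 (adjusted p 0.0243 and 0.0179 by edgeR). Only the cKO group carried Aldh1l1-cre, so for Aldh1l1 the Cre line and the loss of Kir4.1 cannot be told apart. Gja1, Fgfr3, Gjb6 and Slc1a2 pointed the other way, with log2 fold changes of −0.48, −0.32, −0.30 and −0.18. The 10 oligodendrocyte markers summed to 1157 to 2089 CPM in controls and 684 to 1793 CPM in cKO. All 10 had a lower mean in cKO and counts in every library (Mog, Mal and Cldn11 had unadjusted p of 0.00644, 0.00686 and 0.0482, and 0 of 10 passed after adjustment). The 7 markers of oligodendrocyte precursors (OPC) summed to 311 to 1104 CPM in controls and 221 to 460 CPM in cKO. All 7 had a lower mean in cKO and counts in every library, 5 reached an unadjusted p under 0.05, and 0 passed after adjustment. Over all genes tested, 4.77% were lower at that unadjusted threshold. Markers of other cells had smaller sums, for neurons (35.4 to 80.4 and 22.4 to 38.8 CPM in controls and cKO), endothelial cells (38.0 to 58.2 and 19.4 to 48.4), fibroblasts (124 to 614 and 78.8 to 182), microglia (25.3 to 44.8 and 25.1 to 56.0) and ependymal cells (5.64 to 26.3 and 8.26 to 25.1). The mean was lower in cKO for 6 of 6 fibroblast markers (Col1a1 and Col1a2 had unadjusted p of 0.0251 and 0.00149 by edgeR). For Dcn, Lum and Col3a1 this rests on control S6, at 174, 37.8 and 98.0 CPM. The other controls were at 0 to 15.6 CPM for these genes, and cKO libraries at 0 to 25.2 CPM. For endothelial markers the mean was lower in 6 of 7 (Tek and Ly6c1 had unadjusted p of 0.0418 and 0.0435 by edgeR). Among neuronal markers, 2 of 8 had a higher mean in cKO (Syt1 and Gad1). Snap25 and Gad2 had a lower mean, with unadjusted p of 0.0287 and 0.00185 by edgeR. In these lists 0 markers passed after adjustment. Of all these, 3 microglial, 3 fibroblast and 2 ependymal markers were at 0 in at least 1 library. Pdgfra is in the OPC list and the fibroblast list. Oligodendrocyte lineage cells also make cholesterol, and beyond the covariate fit given beside Scd2 their part in the values of the members was not tested, nor was that of the other cells. In bulk RNA, fewer cells of a type and less RNA per cell cannot be told apart.

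Levels per length were read from the authors' FPKM values, as means of the 4 columns of a group. Apoe stood far above every other member, at 5175 FPKM ± 663 (SD, n = 4) in controls. It was followed by Scd2 at 772 FPKM ± 120, Clu at 499 FPKM ± 61.8, Elovl5 at 375 FPKM ± 122 and Srebf1 at 341 FPKM ± 81.2 (SD, n = 4 each). Elovl5 and Srebf1 did not differ beyond their spread. Among sterol enzymes Msmo1, a C4-methyl sterol oxidase, was highest at 220 FPKM ± 26.6 (SD, n = 4), then Hmgcs1 at 124 FPKM ± 47.8 and Cyp51 at 114 FPKM ± 31.1, and the latter pair overlapped. The lowest sterol enzyme was Ebp, the sterol isomerase, at 14.0 FPKM ± 8.83 (SD, n = 4). Abcg1, a sterol exporter, was the lowest member at 1.92 FPKM ± 0.228 (SD, n = 4), while Abca1, which loads lipid onto apolipoprotein E, was at 35.2 FPKM ± 9.44 (SD, n = 4).

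**Figure D1:**
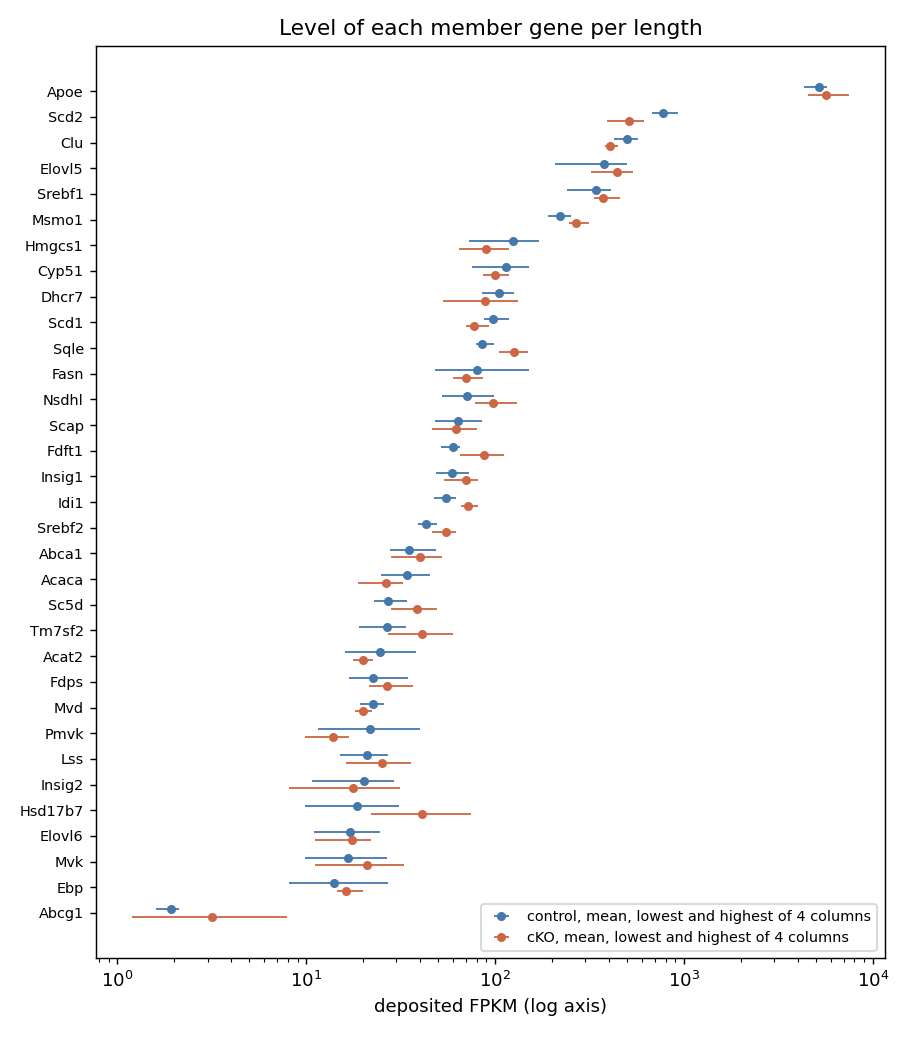
Deposited FPKM (log axis) of each of the 33 members, ordered by control level. Points are group means and bars run from the lowest to the highest of the 4 columns of the group. Apoe leads at 5175 FPKM in controls and Abcg1 is lowest at 1.92 FPKM.

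Comparing cKO with control, 0 of 33 members had an adjusted p under 0.05 in edgeR, where 0.203% of all genes tested were called higher and 0.115% lower. Before adjustment, 6 members had a p under 0.05. Hsd17b7, Sqle, Fdft1, Tm7sf2 and Srebf2 were higher in cKO, 5 of 33 beside 5.03% of all genes. Scd2 was lower, 1 of 33 beside 4.77% of all genes. Libraries of the groups did not overlap for 3 members that were higher (Hsd17b7, Sqle and Fdft1), beside 3.39% of all genes, and for 1 that was lower (Scd2), beside 2.94%. This holds for CPM. In the deposited FPKM, the groups of Sqle and Scd2 did not overlap either, whereas those of Hsd17b7 did (9.80 to 30.8 FPKM in controls, 22.1 to 74.5 FPKM in cKO), and those of Fdft1 met at 65.2 FPKM in the highest control column and 65.1 FPKM in the lowest cKO column. For each of the 4 genes without overlap in CPM, the exact 2-sided permutation test of log2 CPM returned p = 0.0286, the lowest value possible with groups of 4. That value follows from the lack of overlap and is no further evidence. DESeq2 on the same counts called 3 members, Hsd17b7, Sqle and Scd2 (adjusted p 0.00706, 0.0273 and 0.0495), where it called 2.49% of genes with an adjusted p. The authors' deposited table called the same 3 genes, at log2 fold changes of 0.77, 0.54 and −0.57 and adjusted p of 0.00596, 0.0248 and 0.0456, beside 2.87% of its genes, and gave all 33 members the sign found by edgeR. limma-voom called 0 of 33.

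**Figure D2:**
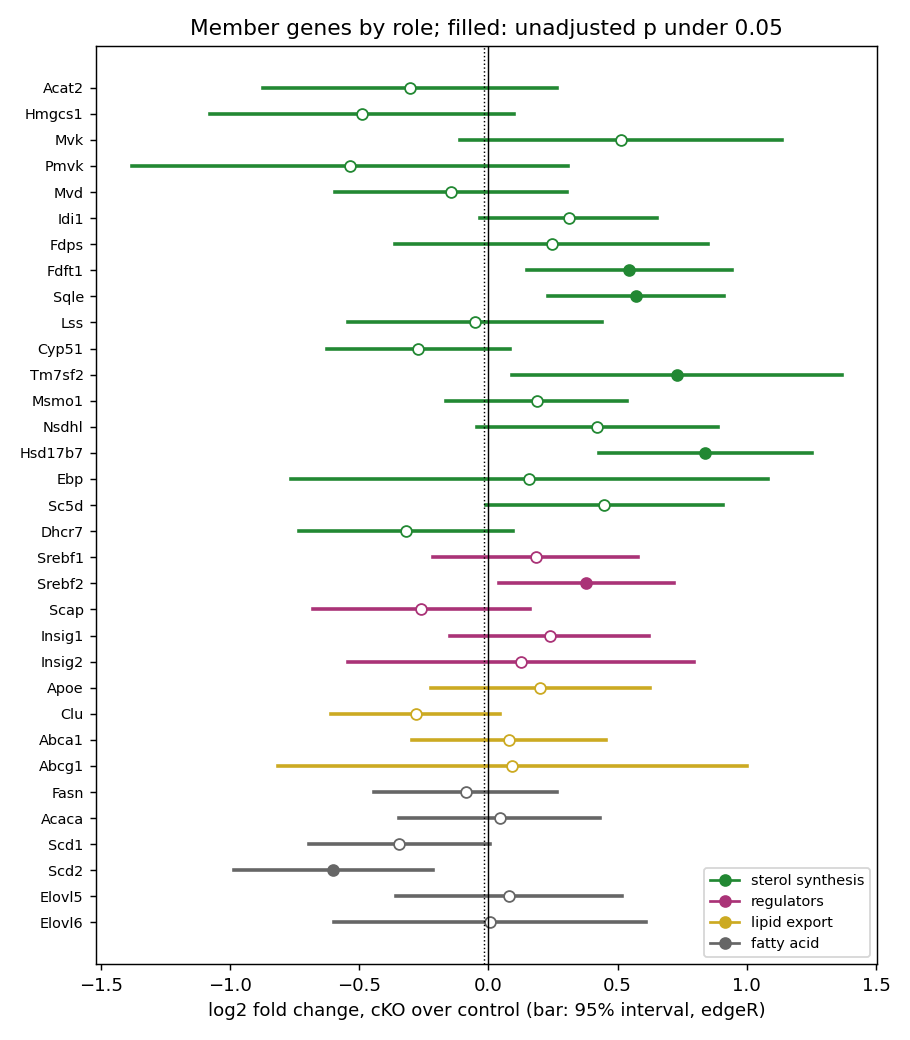
Log2 fold change (cKO over control) of each member with its 95% interval from edgeR, coloured by role. Filled points have an unadjusted p under 0.05, and the dotted line is the median of all genes tested. Intervals of Hsd17b7, Sqle, Fdft1, Tm7sf2 and Srebf2 lie above 0 and that of Scd2 lies below 0.

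The sterol synthesis genes pointed in both directions. Of 18, 11 had a positive and 7 a negative log2 fold change, with a median of 0.22 and a range of −0.54 to 0.84; of all genes tested, 48.4% were positive. Those higher at an unadjusted p under 0.05 numbered 4 (22.2%, beside 5.03% of all genes), and 0 were lower (beside 4.77%). Without cKO S4 the median was 0.07. Divided by position in the pathway, a division made after the values were seen, the 7 mevalonate steps from Acat2 to Fdps had a median of −0.14, and 3 of 7 were positive; without control S7 that median was 0.011. The 3 squalene steps (Fdft1, Sqle and Lss) had a median of 0.55, and the 8 steps after lanosterol had a median of 0.30 with 6 positive. Without cKO S4 the median after lanosterol was 0.17, and without control S1 it was 0.60.

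Hsd17b7, the 3-ketosteroid reductase of the C4-demethylation complex, showed the largest difference of the members. It was at 43.8, 48.1, 34.8 and 50.7 CPM in controls against 63.7, 95.8, 87.5 and 70.3 CPM in the knockout. Every cKO library was above every control library. The log2 fold change was 0.84 (SE 0.19, 95% interval 0.43 to 1.25), with an adjusted p of 0.102 by edgeR. Hsd17b7 lies on chromosome 1, from 169949535 to 169969241 on GRCm38, which is 2.37 Mb from Kcnj10. It is the member nearest to the targeted locus, so in a mixed strain linked sequence and the loss of the channel cannot be told apart for this gene.

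Sqle, squalene epoxidase, adds the first oxygen to squalene and is a rate-controlling step. It was at 202, 163, 182 and 164 CPM in controls against 215, 310, 261 and 269 CPM in the knockout. The groups did not overlap, although cKO S3 was close to control S1. Its log2 fold change was 0.57 (SE 0.16, 95% interval 0.23 to 0.91), a fold of 1.48, with an adjusted p of 0.205 by edgeR.

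Fdft1, squalene synthase, commits farnesyl units to sterols. Controls were at 135, 106, 132 and 136 CPM in S1, S2, S6 and S7, and cKO at 137, 192, 242 and 171 CPM in S3, S4, S5 and S8. The highest control and cKO S3 were nearly equal, so the separation rests on the other cKO libraries. This gave a log2 fold change of 0.55 (SE 0.18, 95% interval 0.15 to 0.94; adjusted p 0.324 by edgeR). Fdft1 overlaps Ctsb on the other strand and the strand setting of the counting is not given in the sources used here. Ctsb itself had a log2 fold change of −0.13. Lss, which closes the ring to lanosterol, averaged 78.2 CPM ± 23.7 in controls and 75.5 CPM ± 14.2 in cKO (SD over 4 libraries), a difference of −0.051 on the log2 scale.

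Tm7sf2, a sterol C14 reductase, was at 27.8, 19.7, 16.3 and 18.1 CPM in controls. It was at 21.3, 32.1, 54.4 and 27.99 CPM in the knockout. Groups overlapped, with cKO S5 far above the rest. Its log2 fold change was 0.73 (95% interval 0.093 to 1.37; adjusted p 0.426 by edgeR) and was 0.41 without cKO S5. Tm7sf2 overlaps Vps51 on the same strand, which was at 6.54 CPM in controls and 9.13 CPM in cKO.

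The other steps after lanosterol gave no clear difference. Sc5d, the C5 desaturase, and Nsdhl, a C4 decarboxylating dehydrogenase, had log2 fold changes of 0.45 (95% interval −0.009 to 0.91) and 0.42 (−0.045 to 0.89). Msmo1, the most abundant, was at 255, 215, 221 and 235 CPM in controls against 242, 327, 213 and 271 CPM in the knockout. These overlap, and only cKO S4 and S8 exceeded every control. Ebp varied most among controls, from 4.36 CPM in S7 to 19.2 CPM in S1, and had a log2 fold change of 0.16 (−0.76 to 1.08). Cyp51, the lanosterol demethylase, and Dhcr7, which makes cholesterol from 7-dehydrocholesterol, pointed the other way with log2 fold changes of −0.27 (−0.62 to 0.083) and −0.32 (−0.73 to 0.096). Cyp51 overlaps Akap9 on the other strand, which had a log2 fold change of 0.60 and was at 136 CPM in controls and 205 CPM in cKO.

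At the entry to the pathway, Hmgcs1 makes HMG-CoA. It was at 246, 181, 404 and 448 CPM in controls against 215, 234, 162 and 299 CPM in the knockout. Control S6 and S7 were above every cKO library, whereas control S1 and S2 lay within the cKO range. Its log2 fold change was −0.49 (95% interval −1.08 to 0.097; adjusted p 0.594 by edgeR). Acat2, the thiolase before it, and Pmvk and Mvd, kinase and decarboxylase of the mevalonate branch, had log2 fold changes of −0.30, −0.54 and −0.14. Without control S7 these were 0.011, −0.046 and −0.048. Mvk, Idi1 and Fdps, which phosphorylate mevalonate, isomerise and then join the isoprene units, were at 0.51, 0.31 and 0.24. Without cKO S4, Mvk was at 0.32 and Fdps at 0.058. Of these 7 genes, Idi1 had the narrowest interval, −0.034 to 0.65, and the lowest unadjusted p from edgeR was 0.073.

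**Figure D3:**
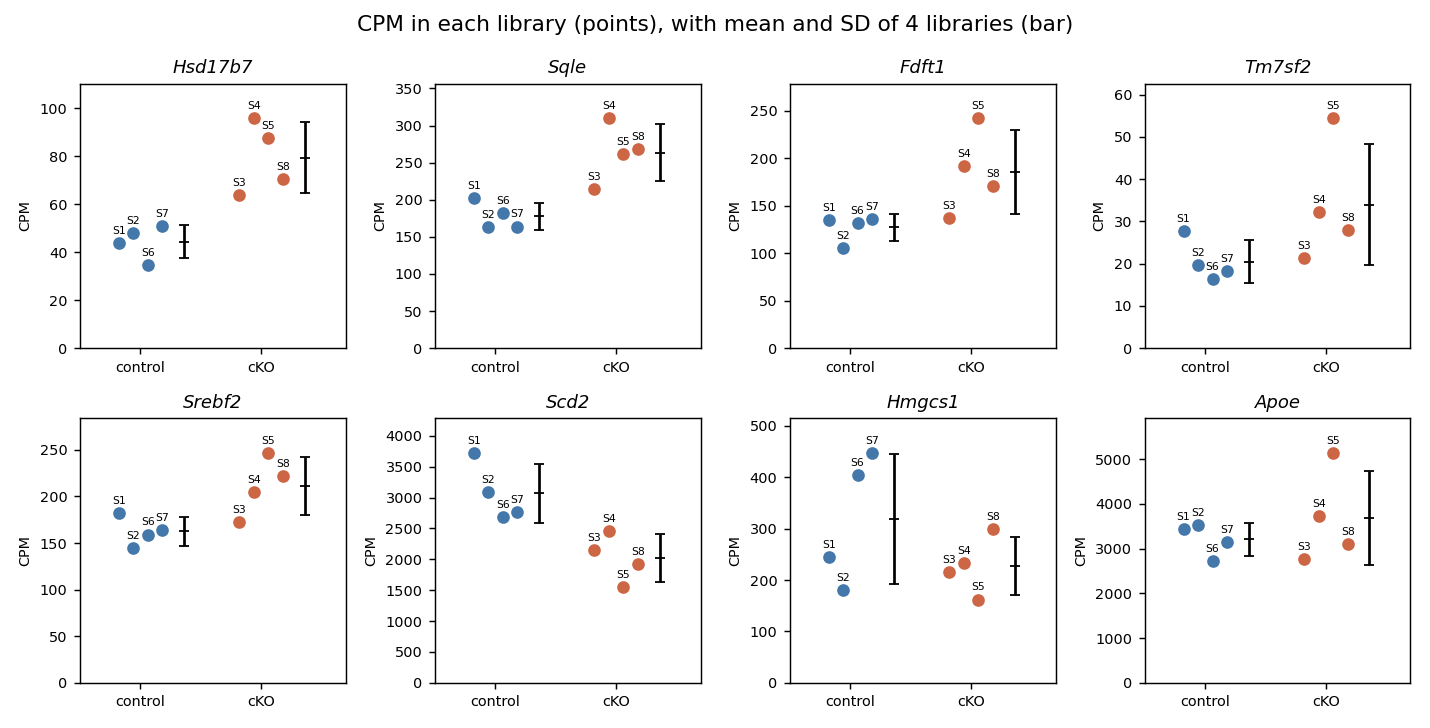
CPM of 8 members in each library, with points labelled by library and the mean and SD of 4 libraries beside them; axes start at 0. Hsd17b7, Sqle and Fdft1 are higher and Scd2 is lower in every cKO library, while Hmgcs1 and Apoe overlap.

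Libraries differed from each other in a way that crossed the groups. Of 18 sterol synthesis members, 8 were highest in cKO S4 (Mvk, Idi1, Fdps, Sqle, Msmo1, Nsdhl, Hsd17b7 and Sc5d) and 0 were lowest there. Control S7 was highest for 6 (Acat2, Hmgcs1, Pmvk, Mvd, Lss and Cyp51), and control S2 was lowest for 5. The summed sterol synthesis RNA was 1774 CPM ± 248 in controls and 1921 CPM ± 228 in cKO (SD, n = 4 each), with control S2 lowest at 1418 CPM and cKO S4 highest at 2234 CPM. Control S6 and S7, where Hmgcs1, Pmvk, Acat2 and Lss were high, also held the largest OPC sums, 688 and 1104 CPM, against 221 to 460 CPM in the other 6 libraries. The smallest OPC sum, 221 CPM, was in cKO S8. That library held 299 CPM of Hmgcs1, above control S1 and S2, and the lowest Pmvk, 7.70 CPM. Mitochondrial and rRNA rows held 45.2%, 42.7% and 44.1% of gene reads in control S6, control S7 and cKO S8. They held 33.2% to 39.2% in the others, and a link to sterol RNA was not tested. In cKO S4, the OPC sum was 229 CPM and the oligodendrocyte sum 1504 CPM, within the range of the other libraries. The part of these cells in the levels of sterol genes was not tested library by library.

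**Figure D4:**
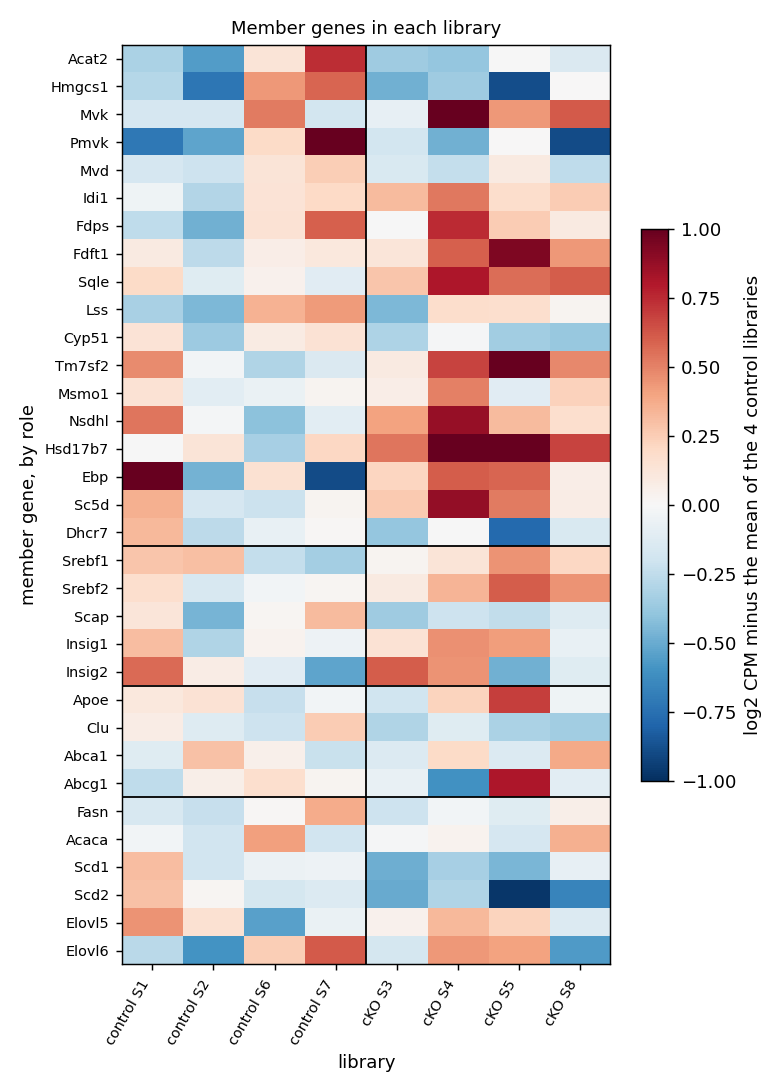
Log2 CPM of each member in each library minus the mean of the 4 control libraries (colour, from −1 to 1, values beyond are shown at the limit). Rows are grouped by role, with controls left of the vertical line. Control S7 is red for several mevalonate steps, and cKO S4 is red for most steps from squalene onward.

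Among the regulators, Srebf2, the factor that acts mainly on cholesterol genes, was at 182, 145, 159 and 164 CPM in controls. It was at 173, 205, 247 and 222 CPM in the knockout, so that only cKO S3 lay within the control range. The log2 fold change was 0.38 (SE 0.16, 95% interval 0.042 to 0.72; adjusted p 0.437 by edgeR). Srebf1, which acts mainly on fatty acid genes, was at 212, 215, 148 and 138 CPM in controls and 178, 191, 239 and 202 CPM in cKO, in the same order of libraries. Groups overlapped and its log2 fold change was 0.18 (−0.21 to 0.58). Insig1, itself a target of the SREBP factors, was at 148, 97.0, 122 and 115 CPM in controls and 132, 164, 159 and 114 CPM in cKO, with a log2 fold change of 0.24 (−0.15 to 0.62). Insig2 and Scap had log2 fold changes of 0.13 (−0.54 to 0.79) and −0.26 (−0.68 to 0.16). The median of the 5 regulators was 0.18, and 4 of 5 were positive.

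The lipid export genes showed no difference beyond the spread between libraries. Of these, 0 of 4 had an unadjusted p under 0.05, beside 5.03% of all genes higher and 4.77% lower. Their median was 0.086, or −0.12 without cKO S5. Apoe was at 3433, 3537, 2722 and 3140 CPM in controls against 2778, 3725, 5143 and 3103 CPM in the knockout. cKO S5 was well above all others, and the remaining cKO libraries lay near the control range. The log2 fold change of Apoe was 0.20 (95% interval −0.22 to 0.62), which spans folds from 0.857 to 1.54. Without cKO S5 it was 0.0022. Abca1 was at 264, 353, 297 and 247 CPM in controls and 262, 328, 262 and 374 CPM in cKO, in the same order, with a log2 fold change of 0.078 (−0.30 to 0.45). Abcg1 had the widest interval of these genes, −0.82 to 1.002 around 0.093, at 66 counts or more per library. Clu, a second apolipoprotein of astrocyte particles, was at 615 CPM ± 89.8 in controls and 506 CPM ± 36.6 in cKO (SD over 4 libraries), giving a log2 fold change of −0.28 (−0.61 to 0.046).

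Among the fatty acid genes, 0 of 6 were higher at an unadjusted p under 0.05 (beside 5.03% of all genes) and 1 of 6 was lower (beside 4.77%). This was Scd2. The gene, the main stearoyl-CoA desaturase of the nervous system, was at 3722, 3085, 2690 and 2763 CPM in controls against 2148, 2465, 1549 and 1926 CPM in the knockout. Every cKO library was below every control library. For Scd2 the log2 fold change was −0.60 (SE 0.18, 95% interval −0.98 to −0.22), a fold of 0.660, with an adjusted p of 0.247 by edgeR. Scd1, the paralog next to it on chromosome 19, was at 370 CPM ± 57.5 in controls and 291 CPM ± 38.6 in cKO (SD over 4 libraries), giving a log2 fold change of −0.34 (−0.69 to 0.004), an interval that contains the value of Scd2. Reads without a unique alignment, 20.4% to 24.2% of each library's total, were assigned to no gene. How many of those match both paralogs is not given in the sources used here, so the separate values of Scd1 and Scd2 are less certain.

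Fasn, which builds palmitate, was at 275, 262, 310 and 397 CPM in controls and 266, 302, 282 and 320 CPM in cKO, in the same order, with a log2 fold change of −0.088 (−0.44 to 0.27). Acaca, which makes its substrate malonyl-CoA, and the elongases Elovl5 and Elovl6 had log2 fold changes of 0.044 (−0.34 to 0.43), 0.079 (−0.36 to 0.52) and 0.0054 (−0.60 to 0.61). The median of the 6 was −0.041. The intervals of Fasn, Acaca and Elovl5 leave out values as high as that of Sqle or as low as that of Scd2, while the interval of Elovl6 reaches past the value of Sqle.

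The oligodendrocyte sums were set beside Scd2 because oligodendrocytes also express it. cKO S8 held the smallest oligodendrocyte sum, 684 CPM, and 1926 CPM of Scd2. cKO S5 held an oligodendrocyte sum of 1793 CPM, within the control range, and the lowest Scd2 of all libraries at 1549 CPM. With the oligodendrocyte marker level of each library as a covariate, the log2 fold change of Scd2 was −0.57, that of Hsd17b7 0.97, Sqle 0.62, Fdft1 0.71 and Hmgcs1 −0.59. Each kept its direction, and 0 members had an adjusted p under 0.05 in that fit. The median of the sterol synthesis members was 0.43 there. All 10 markers behind the covariate had a lower mean in cKO, and none of them was an OPC marker. The fit therefore cannot separate oligodendrocyte lineage content from genotype.

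**Figure D5:**
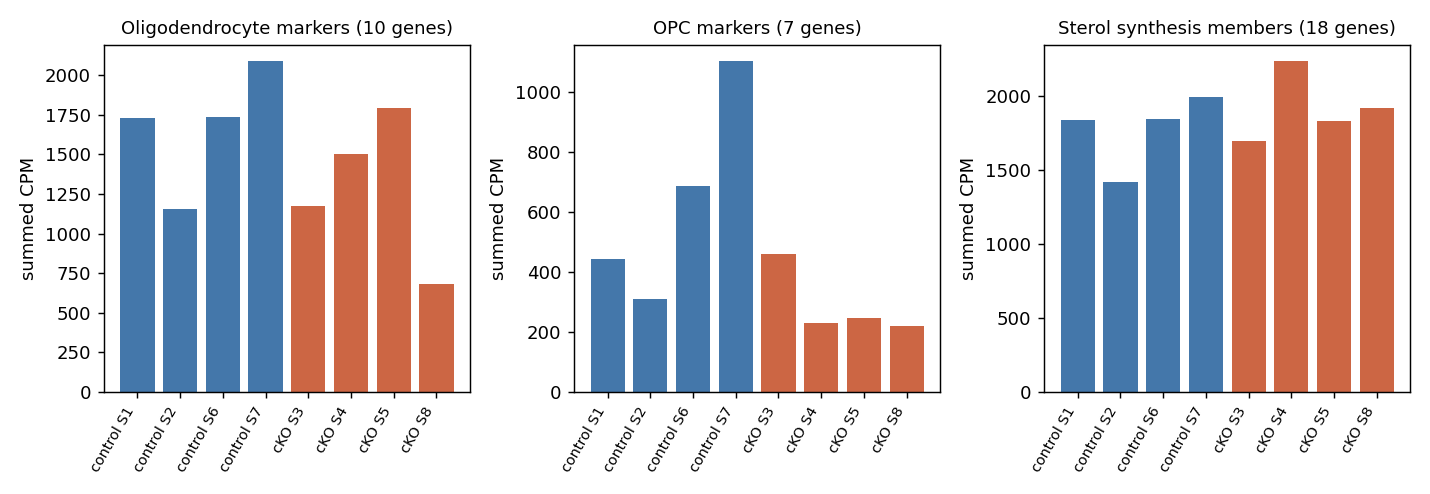
Summed CPM per library of 10 oligodendrocyte markers, 7 OPC markers and the 18 sterol synthesis members; bars start at 0, with controls in blue and cKO in orange. Control S6 and S7 have the highest OPC sums (688 and 1104 CPM), and cKO S4 has the highest sterol sum (2234 CPM).

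Other genes of these pathways were read from a list of 66 symbols that are not members. Of these, 65 were matched and 64 tested, and 0 passed after adjustment. Without adjustment, 5 of 64 (7.81%) were higher and 3 of 64 lower, near the 5.03% and 4.77% of all genes, so these counts do not set the list apart. The median of the 64 was −0.039, beside −0.017 over all genes, and the 8 genes are given as values. Fabp7, a fatty acid binding protein of radial glia and astrocytes, was at 245, 246, 245 and 449 CPM in controls and at 433, 727, 606 and 744 CPM in the knockout. Only control S7 reached the knockout range, and the log2 fold change was 1.08 (adjusted p 0.0885 by edgeR). Also on the higher side, by log2 fold change, were Acacb, the mitochondrial acetyl-CoA carboxylase (1.41), and Lcat, which esterifies cholesterol on lipoproteins (1.08). Lcat was at 352, 327, 99.1 and 138 CPM in controls and 377, 632, 651 and 271 CPM in cKO, so the groups overlapped. The others were Elovl2, an elongase of very long polyunsaturated chains (0.68), and Gpam, the first acyltransferase of glycerolipid synthesis (0.34). The lower genes were Acss2, which makes acetyl-CoA from acetate (−0.67), Mid1ip1, an activator of acetyl-CoA carboxylase (−0.45), and Vldlr, a receptor for lipoproteins with apolipoprotein E (−0.75). Of the 18 matched genes on branches and control of the sterol pathway, 0 had an unadjusted p under 0.05 and 9 were positive.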

How the data were processed

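Total RNA of sorted astrocytes was turned into cDNA with the NuGEN RNA-Seq V2 kit, per the labels. The authors deposited raw counts per Ensembl gene for each library. The submitters' processing notes list TopHat2 2.0.11, Bowtie2 2.2.3, HTSeq 0.6.1p1, DESeq2 1.14.1, Cuffnorm and Cufflinks 2.2.1 and the build GRCm38, without roles; the strand setting is not given in the sources used here. The 5 summary lines of each count file name no gene, held 56.4% to 61.7% of reads and were left out. Rows encoded by mitochondria or for rRNA held 33.2% to 45.2% of gene reads. The authors also deposited FPKM values. Only 3 of 8 FPKM columns followed the count file of the same name, but all 8 followed a library of their own group, so FPKM were used by group. Their deposited DESeq2 comparison holds, per the file headers, mean scaled counts (a signal), log2 fold changes, standard errors and Wald statistics (scores) and p-values.

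Gene counts entered edgeR 4.0.16 (quasi-likelihood test, TMM scaling, filterByExpr, no covariate, Benjamini-Hochberg over all genes tested) in R 4.3.3. limma 3.58.1 and DESeq2 1.42.0 were alternatives. Only the edgeR fit was run on simulated data, with 200 genes changed, each by more than any member differed. Standard errors come from the F statistic. Coordinates and overlaps are from GENCODE M21, and promoters from RefSeq. Fold changes rest on 4 libraries a group. Each p-value from edgeR sets a difference against the spread between libraries, estimated partly from all genes tested. Values per library are given for members with an unadjusted p under 0.05 or groups that do not overlap, the most abundant member of each role, and Srebf1, Srebf2, Insig1, Hmgcs1, Apoe, Abca1 and Fasn; of other pathway genes, those with an unadjusted p under 0.05 are named. The Kcnj10 check came first. Members, gene lists and markers were chosen with earlier results of these data known. Other normalizations, filters, covariates, FPKM pseudocounts and fits without each library were also run.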

Additional observations from a re-analysis of the deposited data

Results flagged for a closer look

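In 3 of 68 groups of 4 libraries (33 members and Kcnj10 in 2 groups), a library lay apart from the other 3 on the log2 scale, where chance gives about 1 in 20, or 3.4. All were controls. Mvk was at 21.04 CPM in control S6, against 12.8 to 13.0 CPM in the other controls. Fdft1 was at 105.7 CPM in control S2, below 132 to 136 CPM in the others. Cyp51 was at 144.3 CPM in control S2, below 197 to 205 CPM in the others.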

How the results depend on the processing

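No paired analysis was possible because the groups share no replicate number. Xist level as a covariate was an alternative chosen after seeing the data. The count of members past the threshold was 0 in every edgeR and limma fit run and 3 with DESeq2. The count over all genes, 47, was 87 with genes of at least 1 count in any library, 84 with at least 10 counts in every library, 384 with DESeq2, 17 with oligodendrocyte level and 28 with Xist level as a covariate, 7 and 8 on FPKM with pseudocounts of 1 and 0.1, and 4 to 45 without 1 library (4 without cKO S4, 14, 16 and 30 without control S2, S6 and S1, 24 and 28 without cKO S5 and S8). The median of sterol synthesis members was 0.43 with oligodendrocyte level as a covariate and 0.07 to 0.29 without 1 library. The median of fatty acid members was −0.19 on FPKM with either pseudocount and −0.16 to 0.021 without 1 library, and that of lipid export members was −0.12 to 0.16. Library totals without composition scaling moved the median of all genes by 0.108 and gave 23 of 33 members a positive value, against 21. Signs turned for members with small values in the edgeR fit given above. With library totals these were Lss (0.047) and Fasn (0.013), and with limma-voom Abcg1 (−0.038) and Elovl6 (−0.015). With oligodendrocyte level they were Lss (0.093), Abca1 (−0.13) and Acaca (−0.12), and with Xist level Lss (0.058) and Abcg1 (−0.096). On FPKM the turned values were larger. With pseudocounts of 1 and 0.1 they were Lss (0.24 and 0.25), Insig2 (−0.30 and −0.33) and Acaca (−0.35 and −0.36). In the edgeR fit given above, Insig2 was at 0.13 and Acaca at 0.044. Without 1 library, ranges crossed 0 for Abca1 (−0.032 to 0.19), Abcg1 (−0.25 to 0.27), Acaca (−0.067 to 0.20), Acat2 (−0.47 to 0.011), Ebp (−0.076 to 0.73), Elovl5 (−0.072 to 0.24), Elovl6 (−0.16 to 0.25), Fasn (−0.16 to 0.059), Insig2 (−0.043 to 0.35) and Lss (−0.18 to 0.11). The cause was not tested. Hsd17b7 stayed between 0.74 and 0.94, Sqle between 0.48 and 0.66, Fdft1 between 0.40 and 0.68 and Scd2 between −0.71 and −0.49 across the 8 fits without 1 library.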
